A study of Mus musculus with 4 samples.

Results

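Chromosome 11 carried more confidently called single-nucleotide variants (SNVs) per Mb of chromosome length than any other autosome in 3 of 4 mouse leukaemia exomes. It ranked 2 of 19 in the other exome. Nearly all SNVs of chromosome 11 lay in a few dense blocks. The variants described here are all those on chromosome 11 of mm10 that had a depth of at least 10 reads, at least 3 variant reads and a variant fraction of at least 0.10 in both deposited callers at the same position and alleles, with a SpeedSeq quality score of at least 20. This choice held 7785 of 60602 variant sites over the 4 samples, of which 6868 were SNVs and 917 were small insertions or deletions (indels). In replicates 1 to 4 it held 6479 of 38719, 6533 of 36734, 3823 of 35355 and 3294 of 25062 variants. The variants were chosen by their depth, variant reads, variant fraction and quality score, so their number and positions are given as a description, with no test.

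All 4 samples belong to 1 group, labelled E2-KO, which the series title spells out as Nras-G12D with knockout of Ezh2 on a C57BL/6 background. Genomic DNA of c-Kit+ leukaemia cells was taken from the marrow of moribund animals, captured over exons and read as pairs of 100 bases. The sources used here do not give the driver of the Ezh2 deletion, the ages or the litters. No wild-type, non-leukaemic or matched normal sample was analysed here, and no variant is therefore called somatic or inherited. The replicates are numbered in listing order only. Nras and Ezh2 lie on other chromosomes and were not analysed here, so the genotype label is taken as given.

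Nras-G12D is an activated form of a RAS GTPase, Ezh2 is the catalytic subunit of Polycomb repressive complex PRC2, and c-Kit is a receptor tyrosine kinase of blood stem and progenitor cells. An inbred strain that matches the reference genome carries few differences from it, while a stretch that comes from another strain shows as a dense run of variants with sharp ends. In a diploid cell a variant on 1 of 2 homologues gives a variant fraction near 0.5, and a variant on every copy gives a fraction near 1. Loss or gain of a homologue, copy-neutral loss of heterozygosity and admixture of other cells move the fraction between these levels. Exome calls exist only where probes captured DNA, so a gap between variants may hold no target.

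The blocks are easiest to see in sequences that several samples share. The promoter windows printed here (250 bases before to 50 bases after a RefSeq gene start, GRCm38.p6, the same assembly as mm10) were picked after their values were seen, because each lies in a different block or lies at a gene of the cytokine list, and the hairpin because it was the only 1 of 83 microRNA hairpins of the chromosome to hold an SNV (25 of the 83 lie in the 3 large blocks). Capitals mark the bases that carried an SNV in at least 1 sample, positions count from 1 at the 5′ end of the printed strand, and each substitution gives the reference base, the position and the variant base.
Morc2a, proximal block, chr11:3658422-3658721, plus strand, A241G: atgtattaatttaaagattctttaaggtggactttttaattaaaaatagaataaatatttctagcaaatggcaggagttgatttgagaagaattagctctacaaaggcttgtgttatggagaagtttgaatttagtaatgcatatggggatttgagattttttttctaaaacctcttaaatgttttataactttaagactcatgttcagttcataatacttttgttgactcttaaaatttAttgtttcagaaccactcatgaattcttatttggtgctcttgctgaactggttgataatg
Olfr1393, middle block, chr11:49279900-49280199, plus strand, G227A, G241A, A244T and G275A: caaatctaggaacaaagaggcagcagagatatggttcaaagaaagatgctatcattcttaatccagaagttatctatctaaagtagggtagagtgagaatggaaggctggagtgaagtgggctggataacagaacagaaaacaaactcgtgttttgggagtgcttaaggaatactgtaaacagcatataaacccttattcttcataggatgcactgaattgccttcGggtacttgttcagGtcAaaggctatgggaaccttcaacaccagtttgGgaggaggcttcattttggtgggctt
Il4, middle block, chr11:53618616-53618915, minus strand, C234T: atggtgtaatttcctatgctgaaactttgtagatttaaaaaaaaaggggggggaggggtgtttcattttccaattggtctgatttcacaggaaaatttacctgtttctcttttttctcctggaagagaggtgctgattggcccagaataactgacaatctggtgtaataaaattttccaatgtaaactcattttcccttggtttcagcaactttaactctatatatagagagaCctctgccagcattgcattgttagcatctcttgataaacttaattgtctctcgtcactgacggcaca
Olfr319, distal block, chr11:58701453-58701752, plus strand, T155G, A208G, A222G and C244T: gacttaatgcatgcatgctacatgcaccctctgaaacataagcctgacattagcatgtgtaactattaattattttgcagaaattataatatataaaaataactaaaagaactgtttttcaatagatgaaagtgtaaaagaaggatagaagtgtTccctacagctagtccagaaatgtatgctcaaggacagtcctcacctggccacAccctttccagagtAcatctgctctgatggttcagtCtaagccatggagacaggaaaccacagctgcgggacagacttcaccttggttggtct
Mir6919 hairpin, middle block, chr11:50232245-50232306, plus strand, G4A: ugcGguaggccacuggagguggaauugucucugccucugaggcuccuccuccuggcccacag

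Samples that held the same SNV differed in its fraction. In the Morc2a window, which belongs to a chromatin ATPase of the MORC family, A241G had 135 of 135, 79 of 173, 148 of 191 and 168 of 168 reads in replicates 1 to 4. These are 100%, 45.7%, 77.5% and 100%, with exact Clopper-Pearson 95% intervals of 97.3 to 100%, 38.1 to 53.4%, 70.9 to 83.2% and 97.8 to 100%, which cover counting error only. The intervals of replicates 1 and 4 overlap, and those of replicates 2 and 3 overlap neither each other nor these.

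In the window of Olfr1393, an olfactory receptor gene of the middle block, G275A had 100 of 239, 95 of 232, 152 of 214 and 205 of 205 reads in replicates 1 to 4. The fractions were 41.8%, 40.9%, 71.0% and 100%, so replicate 1 now stood with replicate 2. In the window of Olfr319, a receptor gene of the distal block, C244T had 115 of 214 reads (53.7%) in replicate 1 and 104 of 198 (52.5%) in replicate 2, and it was not among the confident calls of replicates 3 and 4. The G4A change of the Mir6919 hairpin had 19 of 39 reads (48.7%), 26 of 50 (52.0%), 42 of 45 (93.3%) and 41 of 41 (100%) in replicates 1 to 4, and lay outside both mature microRNAs. Il4 encodes interleukin 4, a cytokine of type 2 immune responses, and C234T in its window had 9 of 19, 8 of 15 and 18 of 20 reads in replicates 1, 2 and 3 without a confident call in replicate 4.

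Of 2289 promoter windows on the chromosome, 53 held a confident SNV (2.32%). The shares were 9 of 127 windows (7.09%) in the proximal block, 15 of 252 (5.95%) in the middle block and 27 of 368 (7.34%) in the distal block. The 9 windows of Ikzf1, Trp53, Nf1, Suz12, Stat5a and Stat5b held 0. In all 91 matches of an SNV to a window the reference base of the variant files was the base of the RefSeq sequence.

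The number of confident SNVs on chromosome 11 was 5844, 5889, 3364 and 2884 in replicates 1 to 4 (4495 ± 1596, SD, n = 4). The indels numbered 635, 644, 459 and 410 (537 ± 120, SD, n = 4). Replicates 1 and 2 lay close together and above replicates 3 and 4 on both counts. The chromosome held 16.8%, 18.1%, 10.7% and 13.2% of each sample's SNVs. Reads over these SNVs had a median depth of 48, 41, 49 and 49. At the limits of the choice, 90, 168, 93 and 112 SNVs had a depth of exactly 10 reads in the shallower caller and entered, and 107, 143, 85 and 100 otherwise passing SNVs at 9 reads did not. The lowest quality scores that entered were 20.4, 21.9, 20.2 and 20.8, and the highest that did not were 19.8, 17.5, 13.7 and 15.5. No confident SNV had a fraction under 20% in either caller, so the confident set stayed well above the limit of 0.10 and shows no lower fractions. VarScan2 alone listed variants down to 0.907% of coverage, over all chromosomes and samples.

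Chromosome 11 was set against the other autosomes, within each sample, on 3 measures. It carried 47.9, 48.3, 27.6 and 23.7 SNVs per Mb in replicates 1 to 4, against 12.2, 11.3, 11.9 and 8.02 on the other autosomes. The means were 36.9 ± 13.1 on chromosome 11 and 10.8 ± 1.91 on the other autosomes (SD, n = 4), a difference of 26.03 ± 11.97 that was positive in 4 of 4 samples. The variants and the chromosome were chosen by such counts, so this difference is a description, with no test. SNVs per Mb are over chromosome length and not over captured bases, so the density of captured exons also enters them. Its part in the difference was not tested.

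Transitions, changes within purines or within pyrimidines, were not used in choosing the variants. They made up 71.7%, 71.5%, 71.6% and 71.0% of SNVs on chromosome 11, against 68.3%, 68.7%, 70.4% and 68.5% on the other autosomes. The mean difference was 2.48 ± 0.938 percentage points, positive in 4 of 4 samples (two-sided exact sign-flip permutation test, p = 0.13). With 4 samples and 16 sign patterns this is the smallest p the test can give. Replicates 1 and 2 shared 88.7% and 88.1% of their chromosome 11 SNVs, and replicates 3 and 4 shared 78.1% and 91.1%. The 4 differences thus rest partly on the same sites and are not independent, which the test assumes. The adjusted p of 0.1875 by this test counts all 3 measures, including SNVs per Mb and the upper-range share, which are given only as a description. The share of SNVs in the upper range (a fraction of 0.65 or more, at a depth of 30 or more) was 31.4%, 11.5%, 90.8% and 93.9% on chromosome 11, against 19.5%, 22.7%, 18.5% and 43.3% on the other autosomes. Here replicate 2 went the other way. The difference of 30.9 ± 37.6 percentage points was positive in 3 of 4 samples and smaller than its SD. Depth and variant fraction were used in choosing the variants, so this difference is a description, with no test. It was 17.1 percentage points without replicate 3, 44.9 without replicate 2 and 26.4 without the stretch up to the end of Sfi1. That stretch, described below as uncertain, held 525 of 1292, 316 of 434, 291 of 2140 and 273 of 1880 upper-range SNVs in replicates 1 to 4.

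Blocks were drawn per sample as runs of at least 10 confident SNVs with no gap over 2 Mb. Each sample had 5 blocks, which held 99.7%, 99.7%, 99.2% and 99.2% of the SNVs in replicates 1 to 4 and covered 35.9%, 32.9%, 22.7% and 22.2% of the chromosome. Replicates 1 and 2 shared a block that ran on through the region of Trp53, where the blocks of replicates 3 and 4 had ended. To compare samples, the chromosome was cut into fixed ranges at the borders of these blocks.

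**Figure D1:**
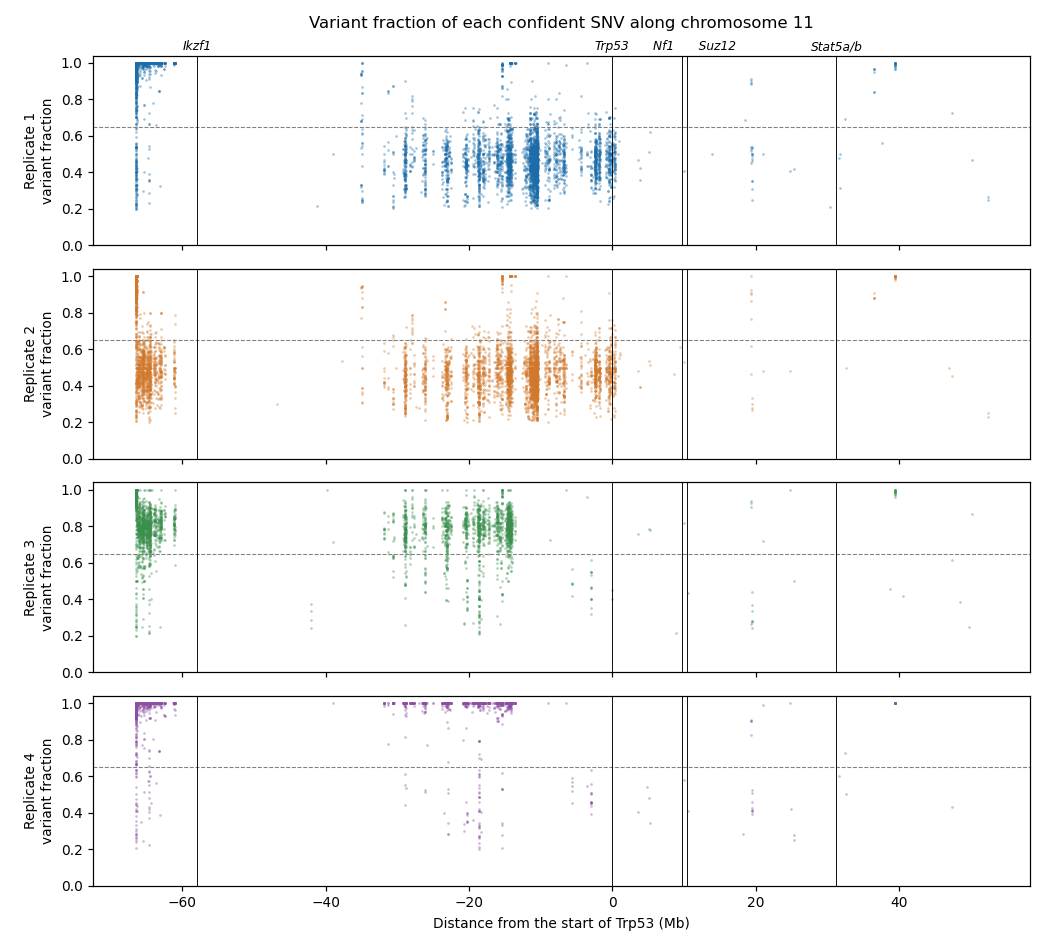
Variant fraction (variant reads over depth) of each confident SNV against its distance from the start of Trp53 in Mb, with 1 panel per sample and 1 point per SNV. The dashed line is the limit of the upper range at 0.65, and vertical lines mark Ikzf1, Trp53, Nf1, Suz12 and Stat5a/b. The proximal run is near 1 in replicates 1 and 4, near 0.5 in replicate 2 and near 0.8 in replicate 3, and the run up to Trp53 is present in replicates 1 and 2.

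The proximal block (chr11:3203348-8549167) was cut at the end of Sfi1, had its first SNV inside Eif4enif1 and ended inside Tns3, which encodes a tensin of focal adhesions. Its last SNV was at 8549167 in replicates 1, 2 and 3 and at 8549100 in replicate 4, so the end differed by less than 100 bases between samples. It held 967, 1077, 1151 and 995 SNVs, with median variant fractions of 1.00, 0.478, 0.796 and 1.00 at depths of 30 or more. The upper range held 98.4%, 1.53%, 96.2% and 98.0% of these SNVs in replicates 1 to 4. Replicate 2 thus carried the run at a level near 0.5, while replicates 1 and 4 carried almost no reference reads.

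The sites were largely common to the samples. Of 1276 proximal SNV sites 788 (61.8%) were confident in all 4 samples. Replicate 1 shared 868 sites with replicate 4, which were 89.8% of the sites of replicate 1 and 87.2% of those of replicate 4. At 573 sites with a depth of 30 or more in both replicates 1 and 2, 560 were in the upper range in replicate 1 only, 10 in both, 3 in neither and 0 in replicate 2 only. At 584 such sites of replicates 1 and 4, 573 were in the upper range in both.

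The middle block (chr11:37691051-56040927) started in a stretch without protein-coding genes, 0.454 Mb beyond Tenm2, and ended inside Nmur2, a neuromedin U receptor gene. It held 1567, 1629, 1723 and 1433 SNVs and spanned 18.3 Mb with 173 protein-coding genes, of which 123 held a confident SNV. The median fractions were 0.458, 0.461, 0.789 and 1.00. Upper-range shares were 5.40%, 6.14%, 88.5% and 94.1%. Replicate 1 therefore changed sides between the proximal and the middle block, while replicates 2, 3 and 4 stood at about the same level in both. The 4 samples again held mostly the same sites, 1141 of 1967 (58.0%) being confident in all of them.

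A small set of sites in the middle and distal blocks stood out in replicates 1 and 2. These were SNVs at a depth of 30 or more and a fraction of 0.9 or more in both samples, among neighbours with medians of 0.458 and 0.461. They lay in Fat2 (6 sites), Sparc (6), Nmur2 (5), Glra1 (1) and Tekt3 (1), and 25 more lay outside protein-coding genes. The median mapping quality was 50.5 in the sites outside genes and 60 in each of these genes. Most sites outside genes lay together between 54140052 and 54140619, where in replicate 1 the mapping quality fell to 38.5 and the depth reached 604 reads. In this cluster replicate 3 was at 93.0% or more where it had a confident call. At the sites in Fat2, Sparc and Nmur2 it was at 67.9% to 84.1%, so the 2 kinds of site differ. Sparc, which encodes a matrix glycoprotein, had a median fraction of 0.942, 0.951, 0.758 and 1.00 at depths of 30 or more, with 23, 19, 19 and 21 SNVs in all, so in it replicates 1 and 2 were above replicate 3.

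The distal block (chr11:56040928-70613571) was the part of the long block of replicates 1 and 2 beyond the middle block of replicates 3 and 4. Its start was set where that middle block ended, so a low count in replicates 3 and 4 follows in part from the cut. The range held 2244 SNVs in replicate 1 and 2313 in replicate 2, and 23 and 21 SNVs in replicates 3 and 4. Of its 2466 sites, 2077 were confident in replicates 1 and 2 only, and 2093 were shared by these samples, which is 93.3% of the sites of replicate 1 and 90.5% of those of replicate 2. The median fractions were 0.457 in replicate 1 and 0.460 in replicate 2, with 1.25% and 1.18% of SNVs in the upper range. The last SNV was at 70462763 in replicate 1, inside Zmynd15, and at 70613571 in replicate 2, inside Mink1, which encodes a kinase. Of the 271 protein-coding genes in this range, 160 held an SNV in each of replicates 1 and 2, 5 in replicate 3 and 3 in replicate 4.

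The few distal calls of replicates 3 and 4 were mostly common to all samples. Both had 14 SNVs at chr11:66072643-66564804, starting in Dnah9, a dynein heavy chain gene of cilia, at median fractions of 0.402 and 0.453. Of the distal sites of replicates 3 and 4, 19 in each were also called in replicate 1, which is 82.6% of 23 and 90.5% of 21.

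**Figure D2:**
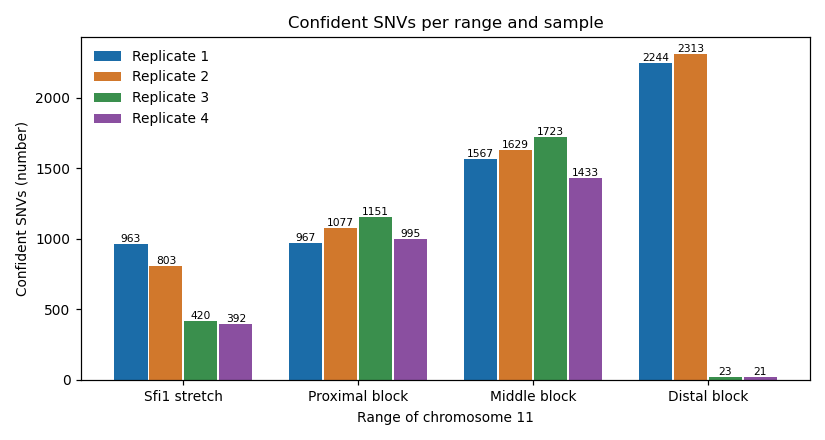
Number of confident SNVs in 4 fixed ranges of chromosome 11, with 1 bar per sample and the count above it. The distal block has 2244 and 2313 SNVs in replicates 1 and 2, and 23 and 21 in replicates 3 and 4, while the proximal and middle blocks differ little in number.

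**Figure D3:**
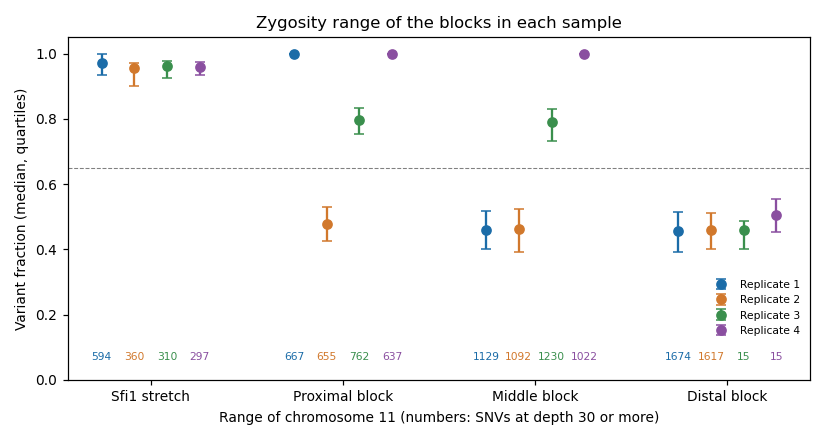
Median variant fraction (points) and quartiles (bars) over SNVs at a depth of 30 or more, per range and sample, with the number of SNVs under each point and the upper-range limit of 0.65 dashed. Replicate 1 is at 1.00 in the proximal block and at 0.458 in the middle block, and replicate 3 is at 0.796 and 0.789 in these blocks.

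When 1 Mb bins with at least 5 SNVs were called upper or lower by their median, the chromosome fell into 17 stretches, each with 1 combination of calls over the samples. Between 4000001 and 9000000 replicate 2 was lower and the other 3 samples were upper. From 45000001 to 56000000 replicates 1 and 2 were lower and replicates 3 and 4 were upper. From 57000001 to 63000000 and from 67000001 to 70000000, which contains Trp53, replicates 1 and 2 were lower and replicates 3 and 4 had too few SNVs for a call. No bin between these proximal bins and 34000001 reached 5 such SNVs in any sample.

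The first 0.103 Mb with calls, chr11:3100092-3203347, behaved differently from the block next to it. It held 963, 803, 420 and 392 SNVs, most of them in Sfi1, a centrin-binding spindle protein gene that had 820 sites, the highest number of any gene on the chromosome. The median fractions were 0.970, 0.954, 0.962 and 0.959, so that replicates 2 and 3 were near 1 here and not at the level of the proximal block. The depth reached 8146, 6659, 8259 and 7414 reads at single sites, against at most 555 reads in the proximal block. The mapping quality of variant reads averaged under 50 at 24.6%, 22.9%, 28.6% and 30.6% of these SNVs, against 6.62%, 4.18%, 5.56% and 7.24% in the proximal block. Near-identical copies would share reads, so the Sfi1 counts and fractions are uncertain. The part of depth and mapping quality in this result was not tested.

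Small clusters lay outside the large blocks. In Dock2, a Rac exchange factor gene of blood cells, replicates 1 and 2 had 39 and 20 SNVs at chr11:34544870-34683063 and replicates 3 and 4 had 0. The mapping quality was under 50 at 56.4% and 70.0% of these SNVs and transitions made up 43.6% and 35.0%, and their part in the cluster was not tested. Between 87814861 and 90594719, from Lpo to Stxbp4, there were 22, 13, 12 and 14 SNVs.

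A cluster of 324 bases at chr11:109011727-109012050, 60.9 kb beyond Axin2 and in no protein-coding gene, held 15, 14, 15 and 14 SNVs. Their median fractions were 99.5%, 100%, 98.8% and 100%, with no value under 96.2%. All 4 samples were thus near 1 at this position, replicate 3 included, although it stood near 0.79 in the proximal and middle blocks. Taco1, a mitochondrial translation activator gene, held 6 SNVs in replicate 1 and 4 in replicate 2, with median fractions of 95.6% and 88.2% and a median mapping quality of 46.2 and 46.8.

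Of the 6 genes asked about, Trp53 lay in a block in 2 samples and the other 5 lay in none. Of all 1609 protein-coding genes of the chromosome, 35.5%, 33.2%, 17.3% and 17.4% lay inside a block in replicates 1 to 4. Ikzf1 encodes Ikaros, a zinc-finger regulator of lymphoid development, and spans chr11:11684962-11772930. It was outside in all 4 samples, 3.14 Mb beyond the last SNV of the proximal block, and the nearest SNV on its far side was 16.6, 10.99, 15.7 and 18.8 Mb away. No confident variant fell within the gene.

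Trp53, the gene of the p53 tumour suppressor, spans chr11:69580348-69591873. In replicates 1 and 2 it lay inside the distal block, between SNVs at 69495039 and 69649854, which were 0.0853 Mb before and 0.0580 Mb after the gene. Within 1 Mb of it there were 235 SNVs in replicate 1 and 239 in replicate 2, at median fractions of 0.469 and 0.480. In replicates 3 and 4 there were 2 and 0 SNVs within 1 Mb, and the gene was outside all blocks. No sample had a confident variant in the gene itself, and since the files list variant sites only, the depth over its exons is unknown. The flanking SNVs had reference and variant reads side by side in replicates 1 and 2, whereas replicate 4 had no SNV near the gene from which a zygosity could be read.

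Nf1 encodes neurofibromin, which speeds the return of RAS to its inactive state, and spans chr11:79339590-79581609. The gene was outside all blocks in the 4 samples, yet 1 SNV within it, G to A at 79547114, was confident in each of them. It had 30 of 74, 35 of 66, 76 of 93 and 54 of 93 reads in replicates 1 to 4. The fractions were 40.5% (29.3 to 52.6%), 53.0% (40.3 to 65.4%), 81.7% (72.4 to 89.0%) and 58.1% (47.4 to 68.2%). Replicate 3 was above the others, with an interval that overlapped none of theirs. Nf1 also held 1-base insertions or deletions at 79412647, 79451897 and 79537158, at 28.0% to 34.5% by SpeedSeq in the samples where they were confident. At 79412647 replicate 3 had an insertion, with all 10 variant reads from the forward strand, and replicate 2 had a deletion. VarScan2 put both of these at 44% and listed both changes in all 4 samples. At 79537158 all variant reads, 7 in replicate 1 and 9 in replicate 4, came from the reverse strand. Those at 79451897 came from both strands. No exon annotation was used, so neither the SNV nor the indels are assigned to an exon or intron.

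Suz12, which encodes a core subunit of PRC2 beside Ezh2, spans chr11:79993106-80034123 and was outside in all 4 samples. It held 1 variant, a 1-base insertion at 80007623 with 7 of 22 reads (31.8%) in replicate 2 only. All 7 variant reads came from the reverse strand. Stat5a (chr11:100859351-100885169) and Stat5b (chr11:100780731-100859004), the signal transducers of cytokine receptors, were outside in all samples and held no confident variant. The nearest SNV to the Stat5a and Stat5b pair was 0.384 Mb away in replicates 1 and 4.

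The placement of Nf1, Suz12 and Stat5a/b rested on the gap that joins SNVs. Trp53 was outside in replicate 4 and inside in replicates 1 and 2 with gaps of 1, 2 and 5 Mb, and in replicate 3 it was inside with 5 Mb only. With a gap of 5 Mb, 9 of the 24 gene and sample combinations were inside, against 2 with 2 Mb, since isolated SNVs then linked the blocks. With blocks of at least 5 SNVs, Stat5a and Stat5b were inside in replicate 1.

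Lists of chromosome 11 genes were placed in the same way. Of 13 cytokine and JAK-STAT genes, 6 (Csf2, Il3, Il4, Il5, Il13 and Irf1) lay in the middle block in all 4 samples and 7 lay outside. These 6 lie close together, between 53612460 and 54267279, so they are not 6 separate placements. The middle block held 10.7% of all protein-coding genes of the chromosome. Of the 13 genes 5, all among these 6 neighbours, held an SNV in at least 1 sample, as did 24.6% of all protein-coding genes. Csf2, which encodes the myeloid growth factor GM-CSF, had median fractions of 45.6%, 51.5%, 81.6% and 100% over 3, 4, 4 and 3 SNVs. Il5, which encodes an eosinophil growth factor, had 41.7%, 49.9%, 79.6% and 100% over 4 SNVs in each sample. Both followed the level of the block around them in every sample.

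Il13, a relative of Il4, had medians of 44.2%, 55.2%, 66.7% and 100% over 3 SNVs in each sample. Irf1, which encodes an interferon-regulated transcription factor, had medians of 59.4%, 44.7% and 76.8% over 2 SNVs in replicates 1, 2 and 3 and 1 SNV at 100% in replicate 4. Il4 had 1 SNV at 47.6%, 53.3% and 79.5% in replicates 1, 2 and 3, and 3 SNVs with a median of 90.0% in replicate 4. The site common to the samples, at 53614071, had 124 of 124 reads in replicate 4. The sites at 53618109 and 53618111, confident in replicate 4 only, had 9 of 10 reads each, and VarScan2 put the first at 50%.

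Of 18 leukaemia and tumour suppressor genes, 3 lay inside in replicates 1 and 2 and 1 in replicates 3 and 4. Of all 1609 protein-coding genes, 571, 534, 278 and 280 lay inside in replicates 1 to 4. Ebf1, a transcription factor of B-cell development, was inside in all samples, with medians of 50.8%, 52.1%, 79.4% and 100% over 4, 4, 4 and 2 SNVs. Ncor1, a nuclear receptor co-repressor, held 13 SNVs in replicate 1 and 14 in replicate 2, at medians of 52.9% and 50.2%, and had none in replicates 3 and 4. Map2k4, a kinase of the JNK pathway, lay inside the distal block of replicates 1 and 2 without a variant of its own. Outside the blocks, Xpo1, a nuclear export receptor, held 1 indel at 28.0% in replicate 1.

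Of 6 polycomb and histone H3 lysine methylation genes, Kdm6b alone lay in a block, in replicates 1 and 2, against the shares of 35.5% and 33.2% of all genes given above. Kdm6b removes the methyl marks that PRC2 places, and lies before Trp53 in the distal block. It held 6 SNVs in each of these samples, at medians of 46.8% and 56.5%, and 1 insertion at 40.5% and 48.6%. Ezh1, Cbx2, Cbx8 and Pcgf2 were outside in all 4 samples and held no confident variant.

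**Figure D4:**
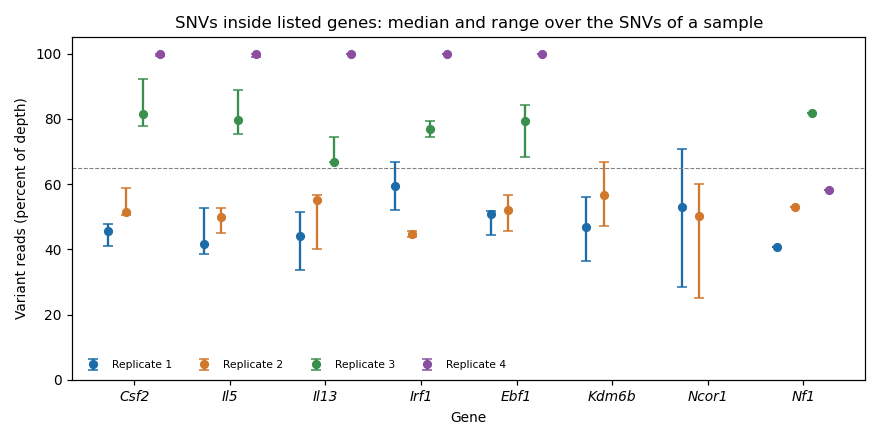
Median variant reads as percent of depth (points) and range over the SNVs of a gene (bars), per sample, for genes of the lists, with the upper-range limit dashed. Csf2, Il5, Il13, Irf1 and Ebf1 of the middle block are near 100% in replicate 4, and Kdm6b and Ncor1 of the distal block have points in replicates 1 and 2 only.

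Over the whole chromosome, 396 of 1609 protein-coding genes held a confident SNV. Gemin5, which encodes a factor of small nuclear ribonucleoprotein assembly, and Glp2r, a peptide hormone receptor gene, held 79 and 75 sites in the distal block. Gemin5 had 70 and 75 SNVs in replicates 1 and 2 at median fractions of 0.472 and 0.490 (depths of 30 or more, as for the genes that follow), and 0 in replicates 3 and 4. Glp2r had 70 and 64 SNVs in replicates 1 and 2 at 0.467 and 0.478, and likewise 0 in replicates 3 and 4.

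Fat2, an atypical cadherin gene of the middle block, had 136 sites with 118, 122, 123 and 110 SNVs at medians of 0.474, 0.487, 0.804 and 1.00. Anxa6 (a membrane-binding annexin, 96 sites), Hmmr (a hyaluronan receptor, 91) and Adamts2 (a procollagen protease, 62) had medians under 0.5 in replicates 1 and 2, between 0.774 and 0.813 in replicate 3 and of 1.00 in replicate 4. In the proximal block, Ap1b1, an adaptor subunit of clathrin coats, had 61 sites at medians of 1.00, 0.466, 0.767 and 1.00, and Tns3 had 56 sites at 1.00, 0.487, 0.815 and 1.00. Fat2 and Ap1b1 thus show at single genes the change of replicate 1 between the blocks.

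Of 6 gene families counted, olfactory receptors alone held SNVs. Of 83 olfactory receptor genes on the chromosome 37 held an SNV in replicates 1 and 2, 16 in replicate 3 and 15 in replicate 4, while of all protein-coding genes 23.2%, 22.9%, 13.7% and 12.9% did in replicates 1 to 4. The 50 keratin (Krt), 10 Hoxb, 8 Slfn, 11 Ccl and 12 Cd300 genes held 0 in every sample. Of these, Hoxb4, Ccl3, Ccl4 and Ccl5 were outside the blocks in every sample, while Olfr1393 and Olfr319 lie in the middle and distal blocks. The part of chromosome position in this contrast was not tested.

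Outside the blocks of every sample there were 38 SNV sites and 107 indel sites. Among them 6 SNVs and 2 indels were confident in all 4 samples, at a mean mapping quality of at least 50. Itgae, an integrin gene of mucosal lymphocytes, had G to A at 73121743 with 46.7%, 48.4%, 75.8% and 40.5%. Pafah1b1, a dynein regulator gene, had T to C at 74679671 with 51.2%, 53.8%, 78.7% and 48.3%. Srr, the serine racemase gene, had T to A at 74910383 with 62.1%, 51.4%, 77.8% and 34.5%. In these SNVs and in the Nf1 SNV replicate 3 had the highest fraction of the 4 samples.

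Abcc3, an organic anion transporter gene, had T to C at 94363796 with 34 of 83 reads (41.0%), 35 of 73 (47.9%), 82 of 82 (100%) and 66 of 66 (100%). Here replicate 3 stood at 100%, at the level of replicate 4. Mgat5b, a glycosyltransferase gene, had C to T at 116945432 with 72.7%, 45.5%, 61.5% and 43.2%. A deletion of 3 bases in Ehbp1, an endocytic adaptor gene, at 22006774 had 54.5%, 100%, 76.3% and 100%. Replicate 2 was at 100% for the Ehbp1 deletion, between blocks in which its medians were 0.478 and 0.461.

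**Figure D5:**
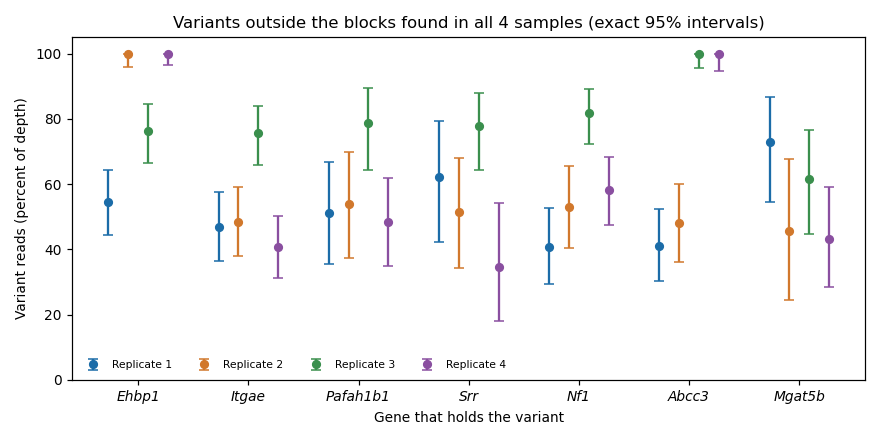
Variant reads as percent of depth with exact 95% intervals for variants outside the blocks that were confident in all 4 samples and lie in a gene. Replicate 3 is between 75.8% and 81.7% in Itgae, Pafah1b1, Srr and Nf1, and replicates 3 and 4 are at 100% in Abcc3.

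Variants confident in 1 sample and listed by neither caller in the other 3 were few outside the blocks. They numbered 3, 3, 6 and 1 SNVs and 11, 9, 7 and 12 indels in replicates 1 to 4. Psme3, which encodes a proteasome activator, had the highest fraction among private SNVs of replicate 1, with 5 of 16 reads (31.3%) for C to G at 101321666. A 1-base deletion at 101321663 had the same 5 of 16 reads in this sample, so the SNV may not be a separate change. Cpeb4, an RNA-binding protein gene, led replicate 2 with 7 of 13 reads (53.8%) at a mapping quality of 22.4. The 3 leading SNVs of replicate 3 lay together at 27486747 to 27486816 in no gene at a mapping quality of 38.3 to 41.8, and the SNV of replicate 4 was in Acsf2, with 8 of 19 reads (42.1%), all from 1 strand. Of the leading private indels, those in Pkd1l1 (replicate 1), Meox1 (replicate 3) and Pgap3 (replicate 4) had 45.5%, 41.7% and 46.2% at depths of 11 to 13 reads.

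Indels in the blocks followed the SNVs, and those outside did not. In the blocks their median fractions at depths of 30 or more were 0.496, 0.450, 0.756 and 0.951, against 0.300, 0.303, 0.282 and 0.310 outside, where only 15, 18, 18 and 27 indels reached this depth. Changes of 1 base made up 48.1%, 48.7%, 45.7% and 44.2% of indels in the blocks, against 92.5%, 90.5%, 88.4% and 91.7% outside. Blocks were drawn from SNVs alone, so indels had no part in where they lie, and the ranges of the 4 samples inside and outside did not overlap on either measure.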

How the data were processed

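Genomic DNA of c-Kit+ bone marrow leukaemia cells in 4 samples labelled E2-KO was exome-captured and sequenced, per the labels. Per the file headers, the authors made a variant file per sample with freeBayes 0.9.21 within SpeedSeq against mm10, whose QUAL column is a Phred-scaled score, and VarScan2 tables of SNVs and indels. The deposited read fields are whole-number counts of reference and variant reads. For the aligner, the VarScan2 version and duplicate handling, nothing is given in the sources used here. The VarScan2 tables list no site under a coverage of 8 or under 3 variant reads.

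SpeedSeq records that span several bases were split into SNVs and indels by the caller's CIGAR string, and such records gave 14.4% to 15.8% of the SNVs on chromosome 11. Variant fractions are SpeedSeq variant reads over depth, and 93.3% to 96.0% of SNVs were within 0.05 of the VarScan2 value. Genes, promoters and microRNAs come from RefSeq tables of GRCm38.p6, which give gene starts and ends but no exons. The length of a chromosome was taken to the end of its last gene, and SNVs per Mb are over that length. All 6 genes asked about and all listed genes were matched by symbol. Named genes are the 6 asked about, listed genes with a confident variant, the 10 genes with most SNV sites, genes at block borders, and up to 3 private SNVs and 3 private indels per sample. Variants outside the blocks shared by 4 samples, the gene Sparc and the cluster beyond Axin2 were named after their values were seen. Some genes that this rule names are not reported here. Members and lists were chosen with earlier results of these data known.

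Intervals are exact Clopper-Pearson 95% intervals and cover counting error only. For transitions, chromosome 11 was compared with the other autosomes by an exact permutation test that flips the signs of the 4 within-sample differences. The adjusted p counts all 3 measures. The labels do not say whether the samples are from separate animals, so p-values speak only of sample-to-sample spread, part of which may be technical. On simulated chromosomes with planted blocks, 600 of 600 blocks and 607 of 608 upper or lower calls of stretches were recovered. Planted blocks held many SNVs placed evenly at random, so a gap limit of 2 Mb could hardly miss them. The recovery therefore does not show how the rule acts on the clustered SNVs of an exome. These counts do not cover blocks called where none was planted. Recovery is not given by block size. It therefore cannot speak for small blocks such as those of 12 SNVs in replicate 3 and 39 SNVs in replicate 1. Alternatives, a set for each result, were 1 caller alone, other depth and quality limits, other gaps, block sizes and fraction limits, and leaving out each sample. Python 3.11.15, pandas 2.3.3 and scipy 1.17.1 were used.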

Additional observations from a re-analysis of the deposited data

Results flagged for a closer look

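In 4 of 29 quantities compared over the 4 samples, 1 sample lay far from the other 3, with a gap to its nearest neighbour that took up most of the range. Chance alone gives this in about 1 in 20 groups of 4. The median depth at chromosome 11 SNVs was 41 reads in replicate 2, against 48 to 49 in the others. The upper-range share of the proximal block was 1.53% in replicate 2, against 96.2% to 98.4%. The median fraction of the distal range was 0.506 in replicate 4, over 15 SNVs, against 0.457 to 0.460. By VarScan2 these medians were 0.457, 0.460, 0.375 and 0.375 in replicates 1 to 4, so this gap depended on the caller. Between Taco1 and Abca8a the upper-range share was 93.8% in replicate 3, where 1 of 16 SNVs was lower, against 100% in the others.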

How the results depend on the processing

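No paired analysis was possible because all samples are in 1 group, so no groups share replicate numbers. Each result was recomputed under the alternatives chosen for it, of which 2 were chosen after seeing the data (leaving out the stretch up to the end of Sfi1, and leaving out multi-base records), and no result reversed. Blocks per sample averaged 5, and 9 with a largest gap of 1 Mb and 2.25 with at least 30 SNVs. They covered 28.4% of the chromosome, and 51.0% with a gap of 5 Mb. They held 99.4% of SNVs, and 99.8% with 5 Mb, 98.4% with at least 30 SNVs and 99.1% with SpeedSeq alone. Of the 24 combinations of a gene asked about and a sample, 2 were inside, and 9 with 5 Mb, 4 with at least 5 SNVs and 1 to 2 when a sample was left out. SNV sites found in all samples made up 33.5%, and 53.1% when any listing in another sample counted, 34.7% at a depth of 20, 39.5% with SpeedSeq alone and 35.1% to 39.2% without 1 sample. The upper-range difference from the other autosomes was 17.1 to 44.9 percentage points without 1 sample, against 30.9 with all. The recomputed values not listed before that difference, 71 planned and 8 added, lay within 1.5 times for counts, within 1 SD for percentages, within the 95% interval for shared sites, and kept their direction for differences. Depth limits fractions at single sites, and capture limits where variants can be seen. The causes of these shifts were not tested.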

Other observations

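Tekt3, a tektin gene of the distal range, held an SNV at 63073481 with a fraction of 0.9 or more in replicates 1 and 2, where distal SNVs had medians of 0.457 and 0.460. In replicates 3 and 4 the first SNV beyond Trp53 was 3.53 Mb away, in Itgae.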
